A study of Homo sapiens with 60 samples.

Results

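The ethanol extract of Liriopis seu Ophiopogonis Tuber was given to SW1783 cells at 3 doses, and the 9 libraries that carry its name, of 60 in all, were selected by their sample titles. SW1783 is an established human astrocytoma line, a tumour line of glial origin. The high dose was 500 µg/mL, the medium dose 100 µg/mL and the low dose 20 µg/mL, each with 3 libraries of messenger RNA taken after 24 h. The study gave cells other herbal extracts or the vehicle, dimethyl sulfoxide at 0.1% in the sample labels and at another concentration in the design text. The other extracts compared below are water extracts of Yijin-tang and Soshiho-tang (library set 8) and ethanol extracts of Schisandrae Fructus, Longan Arillus and Zizyphi Semen. Longan Arillus and Zizyphi Semen carry set number 10. Soshiho-tang has 6 libraries over its 3 doses, and each of the others has 9. Schisandrae Fructus was given at 310, 62 and 12.4 µg/mL, and the others compared at 500, 100 and 20 µg/mL, all for 24 h. The Liriopis extract was made with aqueous ethanol from dried herb, and all 9 of its libraries come from the same line and carry the same library set number, 9, which they share with those of Schisandrae Fructus (18 libraries). The 3 vehicle libraries carry a set label of their own. The question was which genes differ between the high and medium doses, pooled and as a dose trend, and the low dose, and how small a difference the 9 libraries still allow for genes that are well measured. The sources do not say whether the libraries of a dose came from separate cultures, and the p-values therefore reflect the scatter among the libraries as deposited, which may be technical.

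Liriope and Ophiopogon tubers are known for steroidal saponins, homoisoflavonoids and fructan-type polysaccharides. In cells, plant extracts are often read through a few broad programmes: the heat shock and oxidative stress responses, the p53 response, sterol and sugar sensing, and the unfolded protein response. In the unfolded protein response, misfolded proteins in the endoplasmic reticulum activate the sensors IRE1, PERK and ATF6. Cleaved ATF6 and spliced XBP1 then raise transcription of chaperones such as HSPA5 (BiP) and of parts of the degradation machinery such as HERPUD1 (Herp), through short promoter sequences called endoplasmic reticulum stress elements.

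The promoters of HSPA5 and HERPUD1 are shown because these genes stood among the 8 highest of the pooled comparison and HERPUD1 had the lowest p of high against low. HSPA5 lies on chromosome 9 (chr9:125234853-125241330, minus strand, GRCh38, GENCODE 29) and HERPUD1 on chromosome 16 (chr16:56932048-56944863, plus strand). The sequences are from RefSeq on GRCh38.p14, 5′ to 3′ on each gene's strand, at chr9:125241344-125241593 for HSPA5 (250 bases) and chr16:56931892-56932047 for HERPUD1 (156 bases, ending before the first GENCODE 29 start). Capitals mark a match to the endoplasmic reticulum stress element in HSPA5 (CCAAT, 9 bases of any kind, then CCACG) and to the second type of element in HERPUD1 (ATTGG, 1 base of any kind, then CCACG).
HSPA5: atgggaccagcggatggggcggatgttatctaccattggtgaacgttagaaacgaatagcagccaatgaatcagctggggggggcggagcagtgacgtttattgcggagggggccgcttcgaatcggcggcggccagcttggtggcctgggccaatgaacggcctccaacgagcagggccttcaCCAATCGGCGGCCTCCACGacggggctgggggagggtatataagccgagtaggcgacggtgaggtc
HERPUD1: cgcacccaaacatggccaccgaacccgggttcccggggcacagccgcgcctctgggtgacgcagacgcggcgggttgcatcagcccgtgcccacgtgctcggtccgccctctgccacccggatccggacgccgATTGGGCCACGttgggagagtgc
The HSPA5 match spans bases 66 to 48 before the RefSeq transcription start, and the HERPUD1 match bases 117 to 107 before it. Both strands of the 250 bases before the start were searched in 35116 RefSeq promoters, and 0.074% of them held the first element and 0.0513% the second. Of the 18 members of the endoplasmic reticulum list with a promoter in the table, 10 held either element, against 0.125% of all promoters searched. These are matches of letters and no measure of binding. Promoter letters are the same at every dose, so these shares say nothing about the Liriopis libraries.

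The 9 libraries held 21.17 to 35.52 M counts, and the medium dose was the deepest: 29.59 to 35.52 M at the medium dose, 21.17 to 26.24 M at the high dose and 22.27 to 25.44 M at the low dose. Over the 9722 genes at 10 CPM (read counts scaled to the library total) or more, the first component of the libraries' log2 levels took 39.04% of the variance and set low replicate 2 (-10.93) and medium replicate 2 (-8.65) apart from the other 7 libraries, which lay between -0.065 and 6.03. The second component (21.29%) placed the 3 medium libraries at 3.32 to 6.36, above all 6 others, and these are also the 3 deepest, so a medium dose effect and one of depth cannot be told apart. In low replicate 2 GC-poor genes were lower than GC-rich ones by 0.12 (log2), at the end of a range that reached 0.08 in the other direction in low replicate 1. Of 13 glial and neural stem markers, VIM (4783 to 5320 CPM of the unscaled totals, as for the other markers here), GJA1, SOX9, SLC1A3, NFIA and NES were present, whereas the astrocyte markers GFAP, S100B, AQP4 and ALDH1L1 stayed under 0.26 CPM and FABP7 had no counts. Of 10 microglia and macrophage markers 7 lay under 1 CPM, 4 of these had no counts in any library, and CD68, the only 1 at 10 CPM or more, lay at 178 to 222 CPM.

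**Figure D1:**
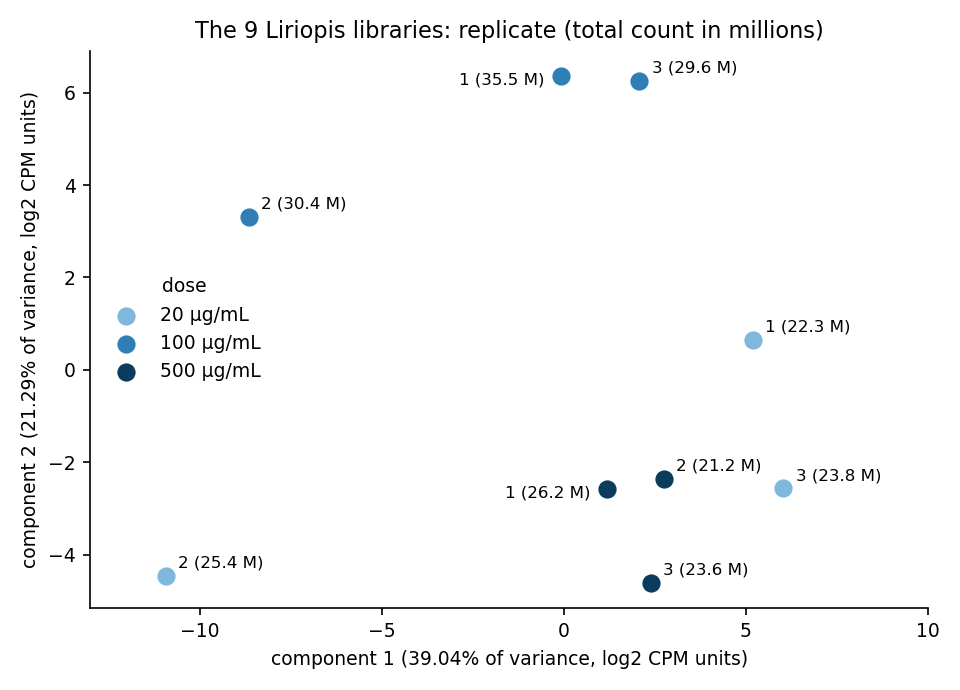
Position of the 9 Liriopis libraries on the first 2 components of log2 CPM over 9722 genes, coloured by dose and labelled with the replicate number and the total count (M). Low replicate 2 and medium replicate 2 lie far to the left on component 1, and the 3 medium libraries lie above the other 6 on component 2.

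No gene passed an adjusted p of 0.05 when the 6 high and medium libraries were set against the 3 low ones. Among 17851 genes tested with edgeR's quasi-likelihood test and Benjamini-Hochberg adjustment, 0% were called. At an unadjusted p under 0.05 there were 587 genes (3.29%), 232 higher and 355 lower, and the median gene differed by -0.0037 (log2). DESeq2 also called 0 genes (419 at an unadjusted p under 0.05) and so did limma voom (622). Without the filter on low counts edgeR called 100 genes of 38487. In that fit the estimated prior degrees of freedom were infinite, so each gene was given the variance of the trend and not its own. Of these 100 genes 99 also belonged to the 17851, 45 lay under 1 CPM and 13 had counts in at most 3 of the 9 libraries. Their median total count over the 9 libraries was 326.5. They include genes that can share reads with near copies or readthrough transcripts, such as MAGED4, BIVM-ERCC5 and FMC1-LUC7L2, and others such as SP110, CXCR5 and TCEAL9. The part of read sharing in these calls was not tested.

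The dose trend, a slope per 5-fold step in dose over all 9 libraries, gave the same count of 0 genes (0%), with 436 at an unadjusted p under 0.05 and a lowest adjusted p of 0.249 in edgeR. High against low gave 0 genes (0%; 463 unadjusted), medium against low 0 (0%; 1300 unadjusted) and high against medium 0 (0%; 1668 unadjusted), with lowest adjusted p-values of 0.116, 0.2 and 0.0702. The test of any difference among the 3 doses also gave 0 genes (0%; 1298 unadjusted, lowest adjusted p 0.0838). The tools did not give the same counts here. DESeq2 called HERPUD1 in the trend and in high against low, 16 genes in medium against low, 86 in high against medium and 57 in the 3-dose test, whereas limma voom called 0 in each (455, 478, 1387, 1748 and 1337 at an unadjusted p under 0.05). The fits of edgeR to fewer libraries also called genes in the comparisons that involve the medium dose: with the 9 Liriopis libraries alone there were 34 in medium against low and 70 in high against medium, and 0 in the pooled comparison, the trend and high against low. With the replicate number as a block these 9 libraries gave 78 and 245, and 135 in the 3-dose test. They gave 1 in the trend and 0 in the pooled comparison and high against low. The same block over the 18 libraries of the set gave 12, 124 and 61.

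What size of difference the libraries still allowed was read from each gene's 95% interval. For the 9722 genes at 10 CPM or more, the median half-width of the interval in the pooled comparison was 0.12 on the log2 scale, or 8.80%, and 95% of genes had a half-width under 0.21. A change of 25% (a rise of that size or the equal fall on the log2 scale) lay outside the 95% interval for 97.74% of these genes (9502), one of 1.5-fold for 99.78% (9701) and one of 2-fold for 99.96% (9718). Tests of equivalence, 2 one-sided tests per gene with Benjamini-Hochberg adjustment over all genes tested, passed for 98.23%, 99.83% and 99.96% at the same bounds. The median of the largest fold still inside the interval was 1.118. The estimated differences had a median size of 0.03, smaller than the median half-width.

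These are statements about each gene alone. With intervals widened by Bonferroni to hold over all 17851 genes at once, the median half-width at 10 CPM or more was 0.33, and the share of genes inside the 25% bound was 34.23%, with 92.18% inside 1.5-fold and 99.53% inside 2-fold. Precision followed level. At 100 CPM or more (1917 genes) the median half-width was 0.10 and at 10 to 100 CPM (7805 genes) 0.13. At 1 to 10 CPM (4155 genes) it was 0.28, with 37.23% of genes inside the 25% bound, 84.6% inside 1.5-fold and 97.28% inside 2-fold. Under 1 CPM (3974 genes) it was 0.77, 0 genes lay inside the 25% bound and 47.16% lay inside 2-fold, so for the other genes at this level a 2-fold change stayed within the interval.

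**Figure D2:**
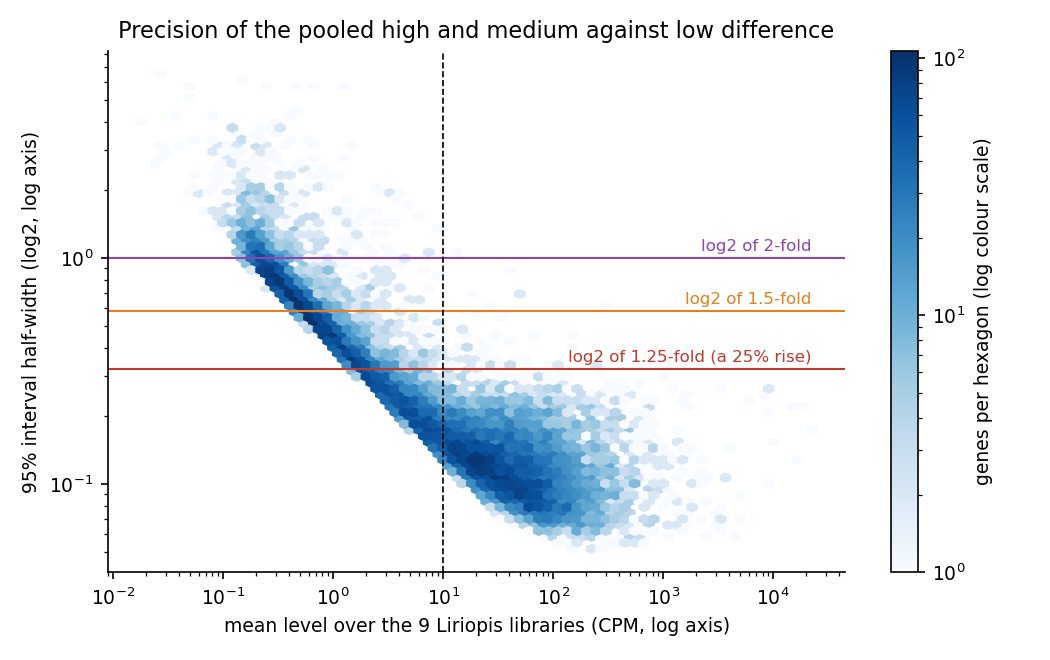
Half-width of the 95% interval of the pooled difference (log2, log axis) against the mean level over the 9 Liriopis libraries (CPM, log axis) for 17781 genes; colour gives the number of genes per hexagon, 64 genes with a half-width over 10 and 6 genes with no counts in the 9 libraries are left out. To the right of the dashed line at 10 CPM nearly all genes lie below the line for a 25% rise.

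Each single dose was measured with less precision than the pool of 6 libraries. In high against low the median half-width at 10 CPM or more was 0.14, and the interval lay inside the 25% bound for 94.92% of genes, inside 1.5-fold for 99.72% and inside 2-fold for 99.96%. In medium against low it was 0.14 with 90.51%, 99.43% and 99.91%. In the dose trend the median half-width per 5-fold step was 0.07, and 99.79% of slopes lay inside the 25% bound per step. The low dose limits the pooled comparison: without low replicate 2 the share inside the 25% bound was 90% and the share inside 1.5-fold 99.53%. Low replicate 2 also lay further from the other low libraries. The median root mean square distance within the low dose was 0.183 (log2), against 0.104 within the high and 0.118 within the medium dose. Low replicate 2 was at 0.183 and 0.186 from low replicates 1 and 3. Those replicates were at 0.115 from each other, inside the range of the medium dose (0.0943 to 0.135). The model gives a gene the same spread in every group, and whether the intervals are too narrow for this reason was not tested.

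The 21 genes at 10 CPM or more whose pooled interval reached past 1.5-fold include several loci that can share reads with near copies or overlapping transcripts. Among them are MAGED4 and MAGED4B, which are near-identical copies, the readthrough genes BIVM-ERCC5, FMC1-LUC7L2 and PEDS1-UBE2V1, the antisense genes TUBA1B-AS1 and THY1-AS1, and pseudogenes such as HMGB1P6 and RPL23AP42. MT-ND6, a mitochondrial subunit of complex I at 1533 CPM, was the most abundant of them, with an interval from -0.16 to 0.63. Values of genes that share reads are uncertain, and the part of read sharing in these intervals was not tested.

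The reference genes show what this precision means for single genes. GAPDH, the glycolytic enzyme, had 3834, 3950 and 4070 CPM at the high dose, 3987, 4435 and 3976 at the medium dose and 3894, 4378 and 3959 at the low dose. The groups overlapped, and the pooled difference was -0.01 (95% interval -0.12 to 0.10). The interval of HPRT1, a purine salvage enzyme, ran from -0.08 to 0.13 and that of TBP, the TATA-binding protein, at 25.51 CPM, from -0.06 to 0.19. VIM, the intermediate filament protein of these cells, differed by 0.00 (-0.08 to 0.07).

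HSPA5, the main chaperone of the endoplasmic reticulum, was among the 8 highest genes of the pooled comparison. It had 3272, 3323 and 3127 CPM at the high dose, 3202, 3226 and 3163 at the medium dose, and 2970, 2894 and 2915 at the low dose. All 6 higher-dose libraries lay above all 3 low-dose ones. The pooled difference was 0.14 (SE 0.03; 95% interval 0.07 to 0.20), 0.15 for the high dose and 0.13 for the medium dose, and it did not pass (adjusted p = 1 by edgeR's quasi-likelihood test). The largest change inside its interval was 1.15-fold. After a correction for transcript length and GC content, chosen after seeing the data, high against low was 0.13. Its unadjusted p was then 0.105 in edgeR, beside 0.000465 without the correction. The 3 vehicle libraries had a mean of 3098 ± 93.6 CPM (SD, n = 3), between the low and the higher doses.

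HERPUD1, a membrane protein that helps to deliver misfolded proteins for degradation, had 78.1, 79.4 and 77.7 CPM at the high dose. At the medium dose it had 65.7, 68.4 and 68.6 CPM and at the low dose 64.8, 69.4 and 65.7. The high-dose libraries stood apart from all 6 others, while the medium and low doses overlapped. High against low was 0.23 (SE 0.05; 95% interval 0.14 to 0.33), the lowest p of that comparison (adjusted p = 0.116 in edgeR), and medium against low 0.02 (-0.07 to 0.11). DESeq2 called it, as did edgeR after a correction for transcript length and GC content that was chosen after seeing the data (adjusted p = 0.00138). Its adjusted p over the other edgeR settings ran from 0.0801 to 1. The vehicle libraries had 75.4 ± 2.07 CPM (SD, n = 3), close to the high dose, and low against vehicle was -0.18 (adjusted p = 0.0198 in edgeR). Against the low dose of Schisandrae Fructus, another group of the same library set, the high dose was higher by 0.27 (SE 0.05). HERPUD1 was the only gene of 17851 called in that comparison (0.0056%, adjusted p = 0.0112 in edgeR), which was added after seeing the data. The same 3 high-dose libraries enter here as in high against low, so the call is not independent of that comparison.

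**Figure D3:**
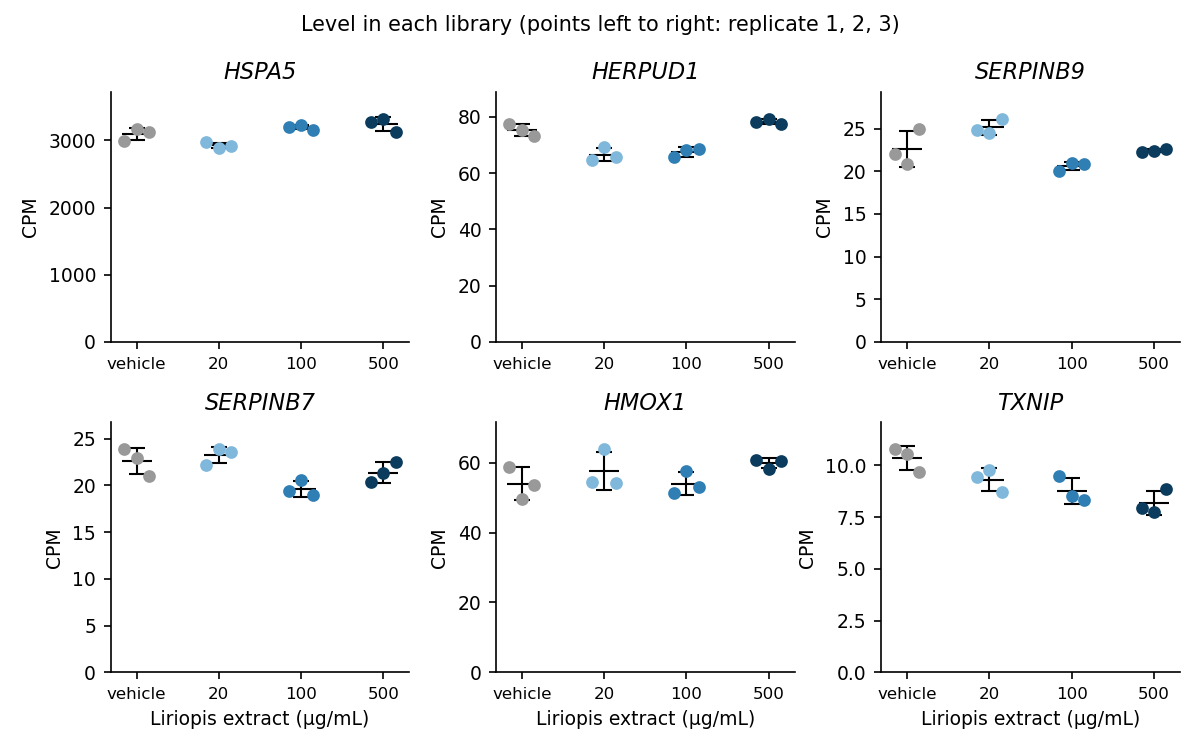
Level in CPM of 6 genes in each vehicle and Liriopis library (coloured points), with the mean and SD of each group of 3 (black); axes start at 0. HSPA5 is higher in all 6 libraries at 100 and 500 µg/mL than in the 3 at 20 µg/mL, HERPUD1 in the 3 at 500 µg/mL, SERPINB9 is lower in all 6, and SERPINB7, HMOX1 and TXNIP overlap between 500 and 20 µg/mL.

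Of the 19 genes of the list of endoplasmic reticulum folding and degradation, all of which were tested and lay at 10 CPM or more, 0 were called in the pooled comparison, against 0% of all genes. All 19 estimates lay above 0, with a median of 0.06, beside -0.0037 over all genes tested, and 4 had an unadjusted p under 0.05 (3.29% of all genes did). The count above 0 was 18 with upper quartile factors. It was 17 without low replicate 1, low replicate 3 or high replicate 1, and 18 without high replicate 2 or medium replicate 3. The lowest count was 16, without low replicate 2. In low replicate 2 SDF2L1 had 46.3 CPM, against 35.9 and 34.7 in the other low libraries, and SEL1L 186, against 222 and 211. The summed level of the list was 12151, 12135 and 11981 CPM at the high dose, 12119, 12065 and 12203 at the medium dose and 11587, 11364 and 11535 at the low dose, so the low dose lay below both others. HSPA5, CANX and CALR are its 3 most abundant members. HSPA5 alone had means of 3241, 3197 and 2927 CPM at the high, medium and low doses, so the sum in large part repeats its values. The vehicle libraries had 11982, 12509 and 12188 CPM, which overlaps the higher doses and lies above the low dose, although they belong to another library set.

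Chaperones and folding enzymes differed little. CALR, a lectin chaperone, had 1589, 1627 and 1706 CPM at the high dose, 1713, 1834 and 1768 at the medium dose and 1517, 1672 and 1560 at the low dose. Its medium libraries lay above all low ones and its high libraries did not. The pooled difference was 0.11 (0.00 to 0.21). HSP90B1, the chaperone GRP94, was 0.07 (0.01 to 0.14) and PDIA4, a disulfide isomerase, 0.06 (-0.0042 to 0.13). PDIA3 and PDIA6, of the same enzyme family, were 0.00 (-0.06 to 0.07) and 0.01 (-0.06 to 0.07). Among the co-chaperones, SDF2L1 had the highest value, 0.14, with a wide interval (-0.04 to 0.33).

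Of the regulators and the degradation machinery, XBP1, the transcription factor of the response, was 0.05 (-0.04 to 0.14). SYVN1, the ubiquitin ligase that works with HERPUD1, was 0.04 (-0.05 to 0.13) and SEL1L, its partner, 0.06 (-0.09 to 0.21). EDEM1, which marks glycoproteins for disposal, was 0.07 (-0.04 to 0.17). Of the 19 genes 6 had all high libraries above all low ones (31.6%, against 3.29% of all genes tested), and 5 had all medium libraries above (26.3%, against 6.09%). The list was among those chosen with earlier results of these data known, and 18 of its 19 pooled intervals lay inside the 25% bound.

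**Figure D4:**
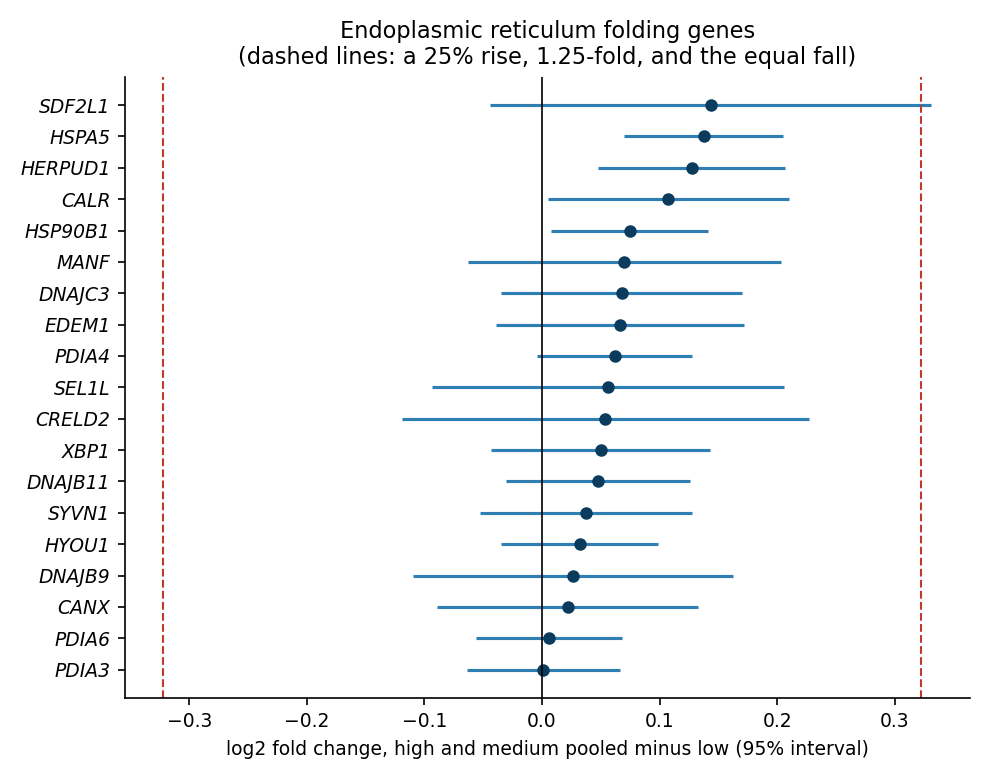
Pooled difference (log2, high and medium minus low; points) with its 95% interval (bars) for the 19 genes of the endoplasmic reticulum list; dashed lines mark a 25% rise and the equal fall. All 19 points lie above 0, 4 intervals do not reach 0, and the interval of SDF2L1 alone crosses a dashed line.

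Among the highest genes outside that list, CREG2, a secreted glycoprotein, had 5.47, 5.88 and 5.01 CPM at the high dose, 5.32, 5.48 and 5.77 at the medium dose and 4.79, 3.75 and 4.14 at the low dose. The groups did not overlap at this low level, and the pooled difference was 0.38 (0.19 to 0.58). SERPINA1, the protease inhibitor alpha-1-antitrypsin, was 0.27 (0.10 to 0.45), BBOF1 0.27 (0.11 to 0.42), RNASEH1, which removes RNA from RNA-DNA hybrids, 0.20 (0.08 to 0.32), ANKRD11 0.13 (0.04 to 0.22) and PHF20 0.11 (0.04 to 0.18). None passed: each had an adjusted p of 1 in edgeR.

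Among the lowest, SERPINB9, the granzyme B inhibitor, had 22.2, 22.4 and 22.6 CPM at the high dose, 20.1, 21.0 and 20.9 at the medium dose and 24.8, 24.5 and 26.2 at the low dose. All 6 higher-dose libraries lay below the 3 low ones, and the pooled difference was -0.23 (SE 0.06; -0.35 to -0.10; adjusted p = 1 in edgeR). ACSS2, which makes acetyl-CoA from acetate, was -0.14 (-0.22 to -0.06) and CPT1C, a neuronal form of carnitine palmitoyltransferase, -0.15 (-0.25 to -0.06), with both doses below the low one in every library. SERPINB7, THAP1, F8A1 and TMBIM1 lay between -0.16 and -0.21, and in each the medium but not the high libraries were all below the low ones. F8A1 has near-identical copies, so its value is uncertain.

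The 8 genes followed as readouts of broad programmes gave pooled intervals that all reached 0 and all lay inside 1.5-fold. HMOX1, the haem-degrading target of NRF2, had 60.8, 58.2 and 60.6 CPM at the high dose, 51.4, 57.6 and 53.1 at the medium dose and 54.6, 63.9 and 54.3 at the low dose. Both higher doses overlapped the low dose, and the pooled difference was -0.02 (-0.13 to 0.09). HMGCS1, of cholesterol synthesis, was 0.02 (-0.07 to 0.11), and CDKN1A, the p53 target p21, -0.15 (-0.30 to 0.01). TXNIP, the sugar-responsive arrestin, was -0.14 (-0.29 to 0.02) and CXCL8, the neutrophil chemokine, -0.07 (-0.32 to 0.18).

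The other 3 had wider intervals. EGR1, an immediate early gene, was -0.01 (-0.46 to 0.45) and MKI67, a proliferation antigen, 0.05 (-0.27 to 0.37). MKI67 had 242, 285 and 264 CPM at the high dose, 319, 235 and 310 at the medium dose and 316, 189 and 295 at the low dose, so low replicate 2 was the lowest library and medium replicate 2 the next. CYP1A1, the target of the aryl hydrocarbon receptor, lay near 1 CPM and its interval ran from -0.21 to 0.56.

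The 34 gene lists gave no call in the pooled comparison in any member tested. Cytosolic heat shock genes (16 tested) had a pooled median of 0.03, 0.07 in medium against low and -0.02 in high against low. Their chaperone HSPH1 was 0.10 (0.02 to 0.18), with all higher-dose libraries above the low ones. The 28 mitosis genes had a median of 0.01, with 21 above 0 in medium against low and 3 above 0 in high against low, and the 27 DNA replication genes one of -0.01, with 19 and 4. Over all genes the medians of those comparisons were -0.00654 and -0.00197. Fatty acid synthesis genes (11 tested) had a median of -0.03, with 3 above 0. For glycolysis, 18 of 18 members had a pooled interval inside the 25% bound, for DNA replication 27 of 27, for extracellular matrix 23 of 23, for lysosome and autophagy 20 of 20, for glutathione and thioredoxin enzymes 17 of 17, for complex I to V subunits 24 of 24, and for cholesterol synthesis and uptake 22 of 24. Over all genes at 10 CPM or more the share was 97.74%. Other lists had fewer members inside this bound. For mitochondrially encoded genes, all at 10 CPM or more, it was 9 of 13, and 2 of 13 in medium against low. For interferon response genes it was 16 of 25 (17 at 10 CPM or more) and for NF-kB and cytokine targets 13 of 23 (11 at that level). The summed microglia and macrophage markers lay at 193 to 224 CPM at the high dose, 191 to 214 at the medium and 206 to 235 at the low dose. This sum is nearly all CD68, since 7 of the 10 markers lay under 1 CPM. The part of such markers in any result was not tested.

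A comparison of the medium dose with the mean of the other 2 doses was made after the medium libraries were seen to stand apart. It called 16 genes (0.0896%), 7 higher and 9 lower, at adjusted p-values from 0.0334 to 0.0497 in edgeR. CFAP36 had 38.4, 37.1 and 37.8 CPM at the medium dose, 29.3, 29.3 and 28.0 at the high dose and 31.5, 31.9 and 29.8 at the low dose, a difference of 0.34 (SE 0.07). ADIPOR1, an adiponectin receptor, had 118, 120 and 123 CPM at the medium dose, 134, 143 and 142 at the high and 133, 135 and 141 at the low dose, a difference of -0.20 (SE 0.04). In both the medium libraries lay apart from the 6 others. FTSJ3 (0.20), which acts in ribosomal RNA processing, and MARCKS (0.23), a substrate of protein kinase C, were also higher, and DESI1 (-0.15), TMED4 (-0.16) and DNAJC4 (-0.31) lower. Leaving out 1 library took the count to 0 in 7 of 9 cases and to 1 without medium replicate 2, and gave 18 without low replicate 1. Other settings gave more genes: 92 with the 9 Liriopis libraries alone (79 higher and 13 lower), 124 with the 18 libraries of the set (88 and 36), 358 without the low-count filter (242 and 116) and 42 with only genes at 10 CPM or more (18 and 24). DESeq2 called 196 (101 and 95), limma voom 18, and edgeR with the length and GC correction 61 (32 and 29). With the replicate number as a block edgeR called 366 with the 9 libraries (242 and 124) and 227 with the 18 (141 and 86). The medium libraries are also the deepest, as given above.

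Set against the vehicle, the 3 doses each differed in many genes: 730 at the high dose (254 higher and 476 lower; 4.09%), 2312 at the medium dose (724 and 1588; 13%) and 1177 at the low dose (360 and 817; 6.59%) by edgeR at an adjusted p of 0.05. With DESeq2 size factors the split at the high dose was 255 and 312, and with upper quartile factors the splits were 385 and 183, 1076 and 977, and 562 and 376, so which direction was more frequent depended on the scaling. The counts rested on single libraries. Without vehicle replicate 2 they were 63, 651 and 114, and without vehicle replicate 3 they were 87, 402 and 80. The high-dose count was 292, 148 and 108 without high replicates 1, 2 and 3 and 461 without low replicate 3. The medium count was 320 without medium replicate 2, and the low count 51 without low replicate 2 and 558 without low replicate 3. The vehicle libraries carry another set label and had 18.73 to 20.47 M counts, so the extract and the library set cannot be told apart in this comparison, and the 3 doses share these controls.

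EGR1 had 162 ± 17.0 CPM in the vehicle (SD, n = 3) and 69.4 ± 10.1 at the low dose, a difference of -1.23 (SE 0.26; adjusted p = 0.00612 in edgeR), beside -1.31 (SE 0.25) at the medium and -1.16 (SE 0.25) at the high dose. MALAT1, a nuclear-retained RNA, had 826.5 ± 86.5 CPM in the vehicle and was higher by 0.77 (SE 0.13), 0.96 (SE 0.13) and 0.72 (SE 0.13) at the low, medium and high doses. Neither was called between 20 and 500 µg/mL, where the intervals ran from -0.45 to 0.60 and from -0.32 to 0.23.

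The low doses of Liriopis (20 µg/mL) and Schisandrae Fructus (12.4 µg/mL), which share the library set but not the dose, differed in 0 genes by edgeR (0%, 737 at an unadjusted p under 0.05). The count was also 0 by limma voom (759 unadjusted). DESeq2 called 1 (539 unadjusted). HSPA5 differed between these groups by -0.02 (-0.10 to 0.06) and HERPUD1 by 0.03 (-0.06 to 0.12). The medium dose of Liriopis differed from the same Schisandrae group in 136 genes (0.762%), a comparison added after seeing the data.

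The step from the low to the high dose differed between Liriopis and each of the 5 other replicated extracts when the difference itself was tested. Compared with Liriopis, 368 genes differed for Yijin-tang (2.06%), 1834 for Soshiho-tang (10.3%), 5549 for Schisandrae Fructus (31.1%), 18 for Longan Arillus (0.101%) and 232 for Zizyphi Semen (1.3%), by edgeR's quasi-likelihood test with Benjamini-Hochberg adjustment. From low to high dose within those extracts the same fit called 1249 (7%), 3316 (18.6%), 8195 (45.9%), 167 (0.936%) and 1031 genes (5.78%), and 0 within Liriopis. The comparison with Longan Arillus gave 10, 9 and 9 genes without high replicates 1, 2 and 3 of Liriopis and 8 without low replicate 1. The high dose was 500 µg/mL in all but Schisandrae Fructus, where it was 310. In any of the 5 extracts, 1492 genes passed with at least a 2-fold change, and 234 of them lay at 10 CPM or more in the Liriopis libraries. For 214 of the 234 the Liriopis high-minus-low interval lay inside the 25% bound and for 233 inside 1.5-fold. Over all genes at 10 CPM or more the shares in this comparison were 94.92% and 99.72%.

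The genes below were chosen for their change in the other extract. TXNIP went from 9.13 to 287 CPM in Schisandrae Fructus and from 9.31 to 8.19 in Liriopis, a difference of -5.16 (SE 0.12; adjusted p = 3.52e-32 in edgeR). In Liriopis the high-minus-low interval of TXNIP ran from -0.37 to -0.01. CXCL8 went from 3.84 to 54.4 CPM in Yijin-tang and from 3.26 to 3.53 in Liriopis, whose interval ran from -0.19 to 0.39. ITGB8, an integrin subunit that activates TGF-beta, fell from 40.8 to 5.12 CPM in Schisandrae Fructus and was 40.2 and 39.7 in Liriopis (-0.21 to 0.17). CENPE, the kinesin of the kinetochore, fell from 57.3 to 10.5 CPM in Zizyphi Semen and was 57.7 and 55.9 in Liriopis (-0.25 to 0.17). MT1E, a metallothionein, was 7.32 and 4.25 CPM in Longan Arillus and 7.38 and 5.95 in Liriopis, and here the difference between extracts did not pass (0.46, SE 0.22; adjusted p = 0.856 in edgeR).

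**Figure D5:**
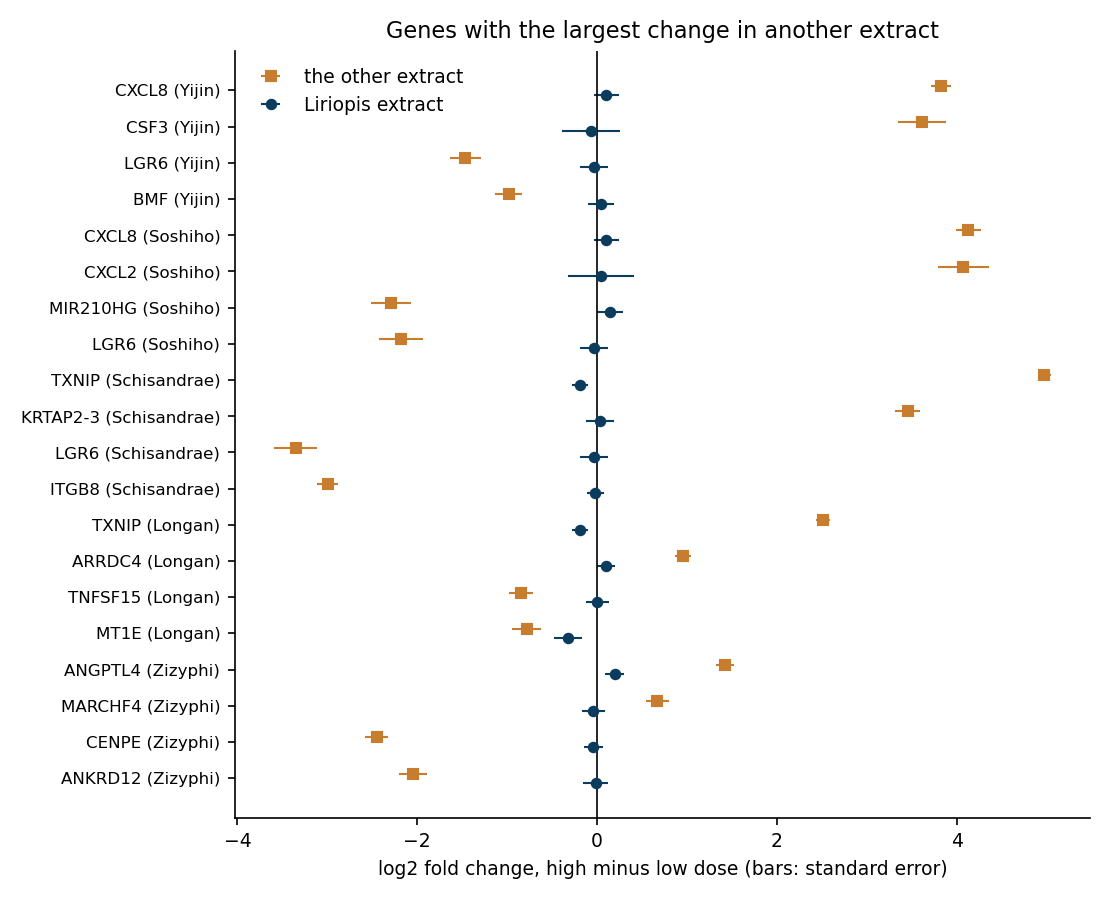
High minus low dose (log2, points) with standard errors (bars) for the genes with the largest rise or fall at 5 CPM or more in each of 5 other extracts (squares), beside the same genes in Liriopis (circles). The Liriopis values lie between -0.32 and 0.19, and those of the other extracts between -3.35 and 4.97.

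HSPA5 and HERPUD1 gave a scale for the values described above. From low to high dose HSPA5 differed by 0.88 (SE 0.04) in Schisandrae Fructus and by -0.43 (SE 0.04) in Longan Arillus, and both differed from the 0.15 of Liriopis (adjusted p = 4.86e-14 and 3.1e-09 in edgeR). HERPUD1 differed by 1.71 (SE 0.05) in Soshiho-tang and by -0.29 (SE 0.05) in Longan Arillus, also apart from the 0.23 of Liriopis (adjusted p = 4.75e-20 and 2.4e-06). For HERPUD1 the difference between Liriopis and Yijin-tang, Schisandrae Fructus or Zizyphi Semen did not pass, at 0.08 (SE 0.06), -0.07 (SE 0.06) and 0.01 (SE 0.06).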

How the data were processed

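Messenger RNA of 60 SW1783 libraries was sequenced. Each value deposited is taken as a gene's expected count in 1 library, since values are not all whole and the submitters' processing notes name RSEM 1.3.3. The notes also name FastQC 0.11.9, Trim Galore 0.6.5, STAR 2.7.3a and the build hg38; which annotation and strand setting were used is not given in the sources used here. Values were rounded to whole numbers (10.86% were not whole). A single edgeR model covered 54 libraries, those of 19 groups with replicates (edgeR 4.0.16, R 4.3.3; trimmed mean of M values; default filter, 17851 genes; 35 residual and 6.31 prior degrees of freedom). Intervals are 95% t intervals from the quasi-likelihood standard error; well measured means 10 CPM or more over the 9 Liriopis libraries. Alternatives used DESeq2 1.42.0 and limma 3.58.1. The method was tested on counts simulated from the fitted model. These counts have no GC or length bias, no shared replicate structure and equal spread in all groups. The simulation therefore cannot show whether the intervals hold where the libraries depart from the model. Fold changes are log2. CPM use the normalized library sizes, except for marker genes and list sums of markers, which use total counts. Chi-square per degree of freedom was 2.72 to 24.29 between libraries of a dose, so none was a copy.

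The members, the gene lists and the rule for named genes were chosen with earlier results of these data known. Named genes were those past 0.05 within Liriopis, the 8 highest and 8 lowest of the pooled comparison by signed root F at 5 CPM or more, 8 followed genes, 2 abundant members and the lowest p of each list, the largest changes in other extracts, and reference genes. The other members of the endoplasmic reticulum list and the imprecise genes were picked after their values were seen. Some genes that the rule names are not reported here.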

Additional observations from a re-analysis of the deposited data

Results flagged for a closer look

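The change from the low to the high dose was compared between Liriopis and each other replicated extract by a test of the difference itself, and genes passed in all 5 comparisons (edgeR, adjusted p under 0.05). There were 368 such genes against Yijin-tang, 1834 against Soshiho-tang, 5549 against Schisandrae Fructus, 18 against Longan Arillus and 232 against Zizyphi Semen. All 5 use the same 6 Liriopis libraries.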

How the results depend on the processing

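The pooled count stayed at 0 under every setting except the one without the low-count filter. That setting called 100 genes in the pooled comparison, 83 in the trend, 73 in high against low, 175 in medium against low, 303 in high against medium, 359 in the 3-dose test, 94 against Schisandrae low, 1456 and 1828 in high and low against vehicle, and 86 and 356 against Longan Arillus and Zizyphi Semen. Medium against low, high against medium and the 3-dose test gave 34, 70 and 42 genes with the 9 libraries alone and 1, 64 and 24 with the 18 of the set. DESeq2's test gave 16, 86 and 57, with 1 each in the trend, high against low and the Schisandrae comparison, and 33 against Longan Arillus. The length and GC correction, added after seeing the data, gave 3, 25 and 17, 1 each in the trend and high against low, 667 in low against vehicle and 40 against Longan Arillus. With only genes at 10 CPM or more, high against medium gave 12. The cause of these differences was not tested. With upper quartile factors the split against Soshiho-tang was 1094 and 803, beside 856 and 978.

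With the replicate number as a block, those 3 counts were 78, 245 and 135 with 9 libraries (1 in the trend) and 12, 124 and 61 with 18, and medium against the mean of the other doses gave 366 and 227 (16 without the block). What the number stands for is not given in the sources used here. Deviations of same-numbered libraries at different doses correlated over 0.1 in 6 of 9 pairs (-0.11 to 0.752, median 0.199). The median was -0.0065 over the 18 other pairs at different doses, and 8 of 9 libraries correlated best with their own number. Whether the numbers pair the libraries therefore stays unsettled.

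Leaving out 1 library gave 63 to 1067 genes in high, 320 to 2476 in medium and 51 to 1607 in low against vehicle, 8 to 17 against Longan Arillus and 0 to 1 in the 3-dose test. Over all settings the pooled half-width at 10 CPM or more lay between 0.1017 and 0.1405 and the share inside the 25% bound between 90% and 99.34%. Of 136 named genes 1, F8A1, was called in the pooled comparison in any setting, without the filter (adjusted p = 0.0491 in edgeR). Depth limits what genes under 1 CPM can show.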
